A study of Mus musculus with 20 samples.

Results

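The genes described here make cholesterol and control how much of it a cell makes. There were 30 of them, taken by name. Of these, 22 encode enzymes of acetyl-CoA, isoprenoid and sterol metabolism, most of them on the route from acetyl-CoA to cholesterol. The other 8 are genes for the SREBP transcription factors, the proteins that hold, escort and cut them, and a sterol carrier. All 30 were among the 16669 genes of the deposited table, and all 30 passed the filter on low values that left 16461 genes to test. They were measured by bulk RNA-seq of mouse ear pinnae, in 5 libraries for each of 4 groups. The right ear had received IL-4, IL-13 or IL-31, each as 10 µl of a 0.1 µg/µl solution in PBS placed in the dermis, and the ears of the remaining group had received PBS. In allergic inflammation type 2 cells release all 3 of these cytokines; IL-13 and IL-4 signal through a shared receptor chain, and IL-31 is known for itch. The sources used here give neither strain, sex and age nor the time of harvest, nor whether libraries of 1 group are separate animals. The p-values therefore describe the spread among the libraries, which may be partly technical. Effective library sizes were 6.11 to 23.69 M reads (median 12.96), at which 3 reads correspond to 0.127 to 0.491 CPM. CPM is a gene's read count scaled to library size, and every level below is a log2 CPM.

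Cells build cholesterol from acetyl-CoA by way of mevalonate, isoprenoids, squalene and lanosterol. When sterol in the endoplasmic reticulum runs low, SCAP carries SREBP to the Golgi, where the proteases of Mbtps1 and Mbtps2 release its active part, which enters the nucleus and turns on the genes of the pathway. INSIG proteins hold SCAP and SREBP back when sterol is plentiful. In skin, keratinocytes make cholesterol for the lipid layers of the permeability barrier, and sebaceous gland cells make sterols and other lipids for sebum.

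PBS libraries 1, 2 and 3 stood apart from the rest in suprabasal epidermal markers. The 12 markers of suprabasal epidermis, all in the table and none at the lowest value in any library, averaged 8.52 to 9.61 log2 CPM in IL-4 ears, 8.59 to 10.25 in IL-13 ears and 9.05 to 9.75 in IL-31 ears. The same average was 7.48, 7.03 and 6.58 in PBS libraries 1, 2 and 3, against 9.06 and 9.26 in PBS libraries 4 and 5. Markers of basal epidermis did not set these libraries apart: their mean was 10.37, 10.27 and 10.1 in PBS libraries 1, 2 and 3, against 10.46 and 10.24 in PBS libraries 4 and 5. Summed over the 12 markers, the level was 18050 to 31330 CPM in IL-4 ears, 19130 to 50420 in IL-13 ears, 27530 to 41670 in IL-31 ears and 3132 to 26730 in PBS ears. The results below are therefore given with all 5 PBS libraries and without those 3. Neutrophil markers split every group: their mean was −0.23 to 4.25 in IL-4 ears, −0.65 to 5.3 in IL-13 ears, −0.94 to 5.03 in IL-31 ears and −0.05 to 6.01 in PBS ears, and it was above 2 in 9 libraries (IL-4 library 4, IL-13 libraries 1 and 3, IL-31 libraries 1, 3 and 4, and PBS libraries 1, 3 and 5). In bulk tissue, fewer cells of a type and less RNA per cell cannot be told apart.

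In the fit to all libraries a part of the cholesterol genes was higher in cytokine-injected ears than in PBS ears, with no called increase above 1.85-fold. In IL-4 ears 8 of the 30 members were higher (26.7%) and 0 were lower, where 8.22% of all tested genes were higher and 9.63% were lower. In IL-13 ears 10 were higher (33.3%) and 1 was lower, against 9.94% and 9.8% of all tested genes. In IL-31 ears 4 were higher (13.3%) and 0 were lower, against 5.18% and 1.2%. In either direction 17.8%, 19.7% and 6.38% of all tested genes passed. Of those calls 46.1% were higher for IL-4 and 50.4% for IL-13, against 59.5% and 61.4% after quantile scaling. Quantile scaling called 7, 9 and 5 members, beside 18%, 18.9% and 6.9% of all tested genes. A gene was called at an adjusted p under 0.05 in limma over all 16461 tested genes. Dhcr7, Sc5d, Srebf2 and Stard4 were called in each of these comparisons, which share the PBS libraries. The median log2 difference of the members was 0.345 for IL-4, 0.3354 for IL-13 and 0.1803 for IL-31, where the median of all tested genes was −0.0156, −0.0285 and −0.0448. Groups that did not overlap were rarer. Every IL-4 library exceeded every PBS library for Srebf2 (2.64% of all tested genes), every IL-13 library did so for Scap and Insig2 (2.52%) and every IL-31 library for Dhcr7 (2.93%), and every IL-13 library lay below PBS for Acat3 (5.01%). Set against PBS, the log2 difference was above 0 for 28 of 30 members in IL-4 ears, 26 in IL-13 ears and 27 in IL-31 ears, against 48%, 46.7% and 44.2% of all tested genes. Leaving out PBS libraries 1, 2 and 3 gave 9 called members for IL-4, 4 for IL-13 and 0 for IL-31. Of these, 1 was shared with the calls on all libraries for IL-4 (Hmgcs1) and 0 for IL-13. Leaving out the 9 libraries above 2 in neutrophil markers, chosen after the data were seen, gave 14, 7 and 0, all higher. In that fit 8.43%, 3.34% and 0% of all tested genes were called. Hmgcs1 and Srebf2 were again among the IL-4 calls, and Fdps, Sqle and Srebf2 among the IL-13 calls.

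**Figure D1:**
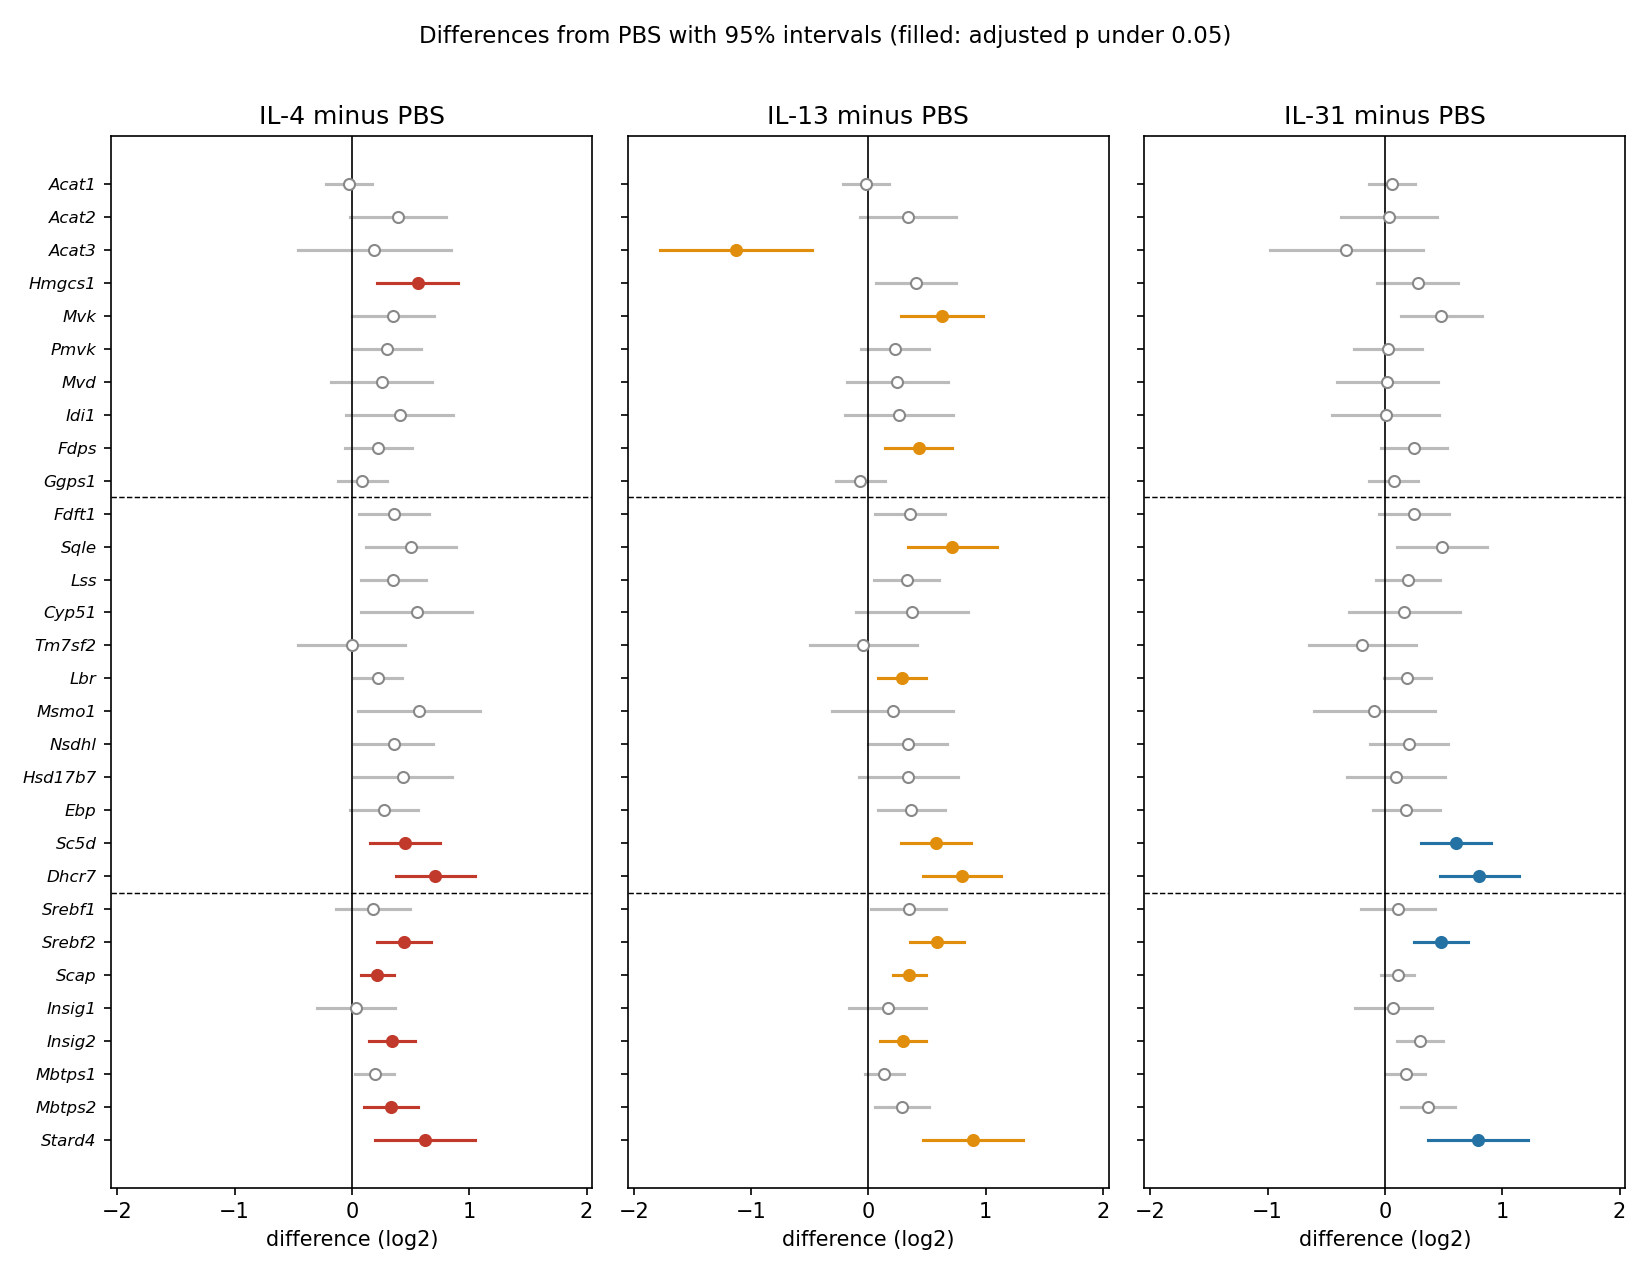
Differences from PBS of the 30 members after IL-4, IL-13 or IL-31, as log2 differences with 95% intervals. Dashed lines part the early enzymes (top), the squalene and sterol enzymes, and the SREBP genes with Stard4 (bottom), and filled points are the 8, 11 and 4 members that passed the test, of which Acat3 in IL-13 ears is the one below 0.

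Of the 8 SREBP genes and their partners, 5 rose in IL-4 ears, 4 in IL-13 ears and 2 in IL-31 ears, and 0 fell. As shares, 62.5%, 50% and 25% were higher, beside 8.22%, 9.94% and 5.18% of all tested genes. Srebf2 was higher in all of the cytokine groups. Srebf2 (ENSMUSG00000022463, chr15:82147181-82205379 on GRCm38) encodes SREBP2, the main activator of cholesterol synthesis genes. Its levels were 7.8, 7.82, 7.73, 7.86 and 7.85 in IL-4 ears, 8.01, 7.71, 8.12, 7.9 and 8.02 in IL-13 ears, 7.75, 7.63, 7.9, 8.05 and 7.89 in IL-31 ears, and 7.31, 6.99, 7.3, 7.52 and 7.72 in PBS ears. All 5 IL-4 libraries lay above every PBS library, while 4 IL-13 and 4 IL-31 libraries did. The log2 difference from PBS was 0.44 ± 0.11 (SE) for IL-4 (1.36-fold, adjusted p = 0.0104), 0.59 ± 0.11 for IL-13 (adjusted p = 0.00235) and 0.48 ± 0.11 for IL-31 (adjusted p = 0.0223). The IL-4 and IL-13 calls held in each of the 10 fits that left out 1 library. Without PBS libraries 1, 2 and 3 the difference was 0.19 for IL-4 (adjusted p = 0.305), 0.33 for IL-13 (0.101) and 0.22 for IL-31 (0.673).

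Scap, whose product escorts SREBP to the Golgi, rose in IL-4 and IL-13 ears (ENSMUSG00000032485, chr9:110333288-110384950). Its levels were 7.42, 7.26, 7.27, 7.38 and 7.45 in IL-4 ears, 7.48, 7.45, 7.67, 7.46 and 7.39 in IL-13 ears, 7.18, 7.21, 7.23, 7.38 and 7.26 in IL-31 ears, and 7.15, 7.02, 7.11, 7.26 and 7.15 in PBS ears. The IL-13 libraries did not overlap the PBS libraries, and 1 IL-4 library tied with the highest PBS library at 7.26. The log2 difference was 0.22 ± 0.07 for IL-4 (adjusted p = 0.0303), 0.35 ± 0.07 for IL-13 (0.00259) and 0.11 ± 0.07 for IL-31 (0.313). Setting aside PBS libraries 1, 2 and 3 gave 0.15 for IL-4 (0.291) and 0.28 for IL-13 (0.0732). Of the exonic bases of Scap, 13.2% overlap 5830462I19Rik on the opposite strand, and whether counting used strand is not given in the sources used here.

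The INSIG genes differed from each other in their calls. Insig2 (ENSMUSG00000003721, chr1:121304353-121332589) stood at 5.97, 6.02, 6.33, 6.26 and 6.31 in IL-4 ears, 6.15, 6.11, 6.1, 6.11 and 6.2 in IL-13 ears, 6.24, 6.12, 6.17, 6.02 and 6.15 in IL-31 ears, and 5.5, 5.95, 5.73, 6.04 and 5.98 in PBS ears. Each IL-13 library lay above every PBS library, and the IL-4 and IL-31 libraries overlapped them. Relative to PBS, it differed by 0.34 ± 0.09 for IL-4 (adjusted p = 0.0182), 0.30 ± 0.09 for IL-13 (0.0334) and 0.30 ± 0.09 for IL-31 (0.0612), and without PBS libraries 1, 2 and 3 it was 0.17, 0.13 and 0.13 (adjusted p = 0.285, 0.509 and 0.738). Insig1, itself a well-known SREBP target, stood at 6.33, 5.74, 6.17, 6.06 and 5.96 in IL-4 ears, 6.31, 6.32, 6.05, 6.06 and 6.17 in IL-13 ears, 5.96, 5.92, 6.18, 6.17 and 6.21 in IL-31 ears, and 5.77, 5.76, 6.81, 5.84 and 5.92 in PBS ears. PBS library 3 was above all the others, and the groups overlapped. Its log2 difference was 0.03 (95% interval −0.29 to 0.36) for IL-4, 0.16 (−0.16 to 0.49) for IL-13 and 0.07 (−0.26 to 0.40) for IL-31, none of which passed the test.

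Srebf1, which encodes the SREBP1 forms that mainly drive fatty acid synthesis genes, passed in none of the comparisons. It stood at 8.21, 7.86, 7.86, 8.2 and 8.22 in IL-4 ears, 8.1, 8.57, 8.06, 8.21 and 8.2 in IL-13 ears, 7.8, 8.11, 8.09, 7.86 and 8.14 in IL-31 ears, and 7.99, 7.98, 8.19, 8.08 and 7.19 in PBS ears. The groups overlapped, and PBS library 5 was the lowest of all. The log2 difference was 0.18 (95% interval −0.14 to 0.50) for IL-4, 0.34 (0.03 to 0.66) for IL-13 and 0.11 (−0.20 to 0.43) for IL-31, with adjusted p-values of 0.45, 0.119 and 0.659. Of the protease genes, Mbtps2 (ENSMUSG00000046873, chrX:157535371-157598715) rose in IL-4 ears, at 4.41, 4.7, 4.88, 4.66 and 4.83 against 4.4, 4.2, 4.22, 4.33 and 4.69 in PBS ears, overlapping ranges. Its log2 difference was 0.33 ± 0.11 for IL-4 (adjusted p = 0.0441), 0.28 for IL-13 (0.075) and 0.37 for IL-31 (0.0505). The IL-4 call was lost in 8 of the 10 fits that left out 1 library and without PBS libraries 1, 2 and 3 (0.19, adjusted p = 0.434), and 28.4% of its exonic bases are shared with Yy2 on the same strand. Mbtps1 differed by 0.20, 0.14 and 0.18 after IL-4, after IL-13 and after IL-31 and did not pass.

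Stard4, a cytosolic carrier that moves cholesterol between membranes, had the largest increase of any member in IL-13 ears. Its levels were 5.46, 5.67, 5.76, 5.98 and 5.89 in IL-4 ears, 6.15, 5.57, 6.36, 5.79 and 6.22 in IL-13 ears, 5.92, 5.51, 6.23, 6.04 and 5.9 in IL-31 ears, and 4.89, 4.44, 5.09, 5.41 and 5.81 in PBS ears. PBS libraries 1 to 4 lay below every cytokine library, and PBS library 5 lay within their range. Set against PBS, the log2 difference was 0.62 ± 0.20 for IL-4 (1.54-fold, adjusted p = 0.04), 0.89 ± 0.20 for IL-13 (1.85-fold, 0.00603) and 0.79 ± 0.20 for IL-31 (1.73-fold, 0.0297). Without PBS libraries 1, 2 and 3 it was 0.14, 0.40 and 0.31 (adjusted p = 0.717, 0.299 and 0.719).

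**Figure D2:**
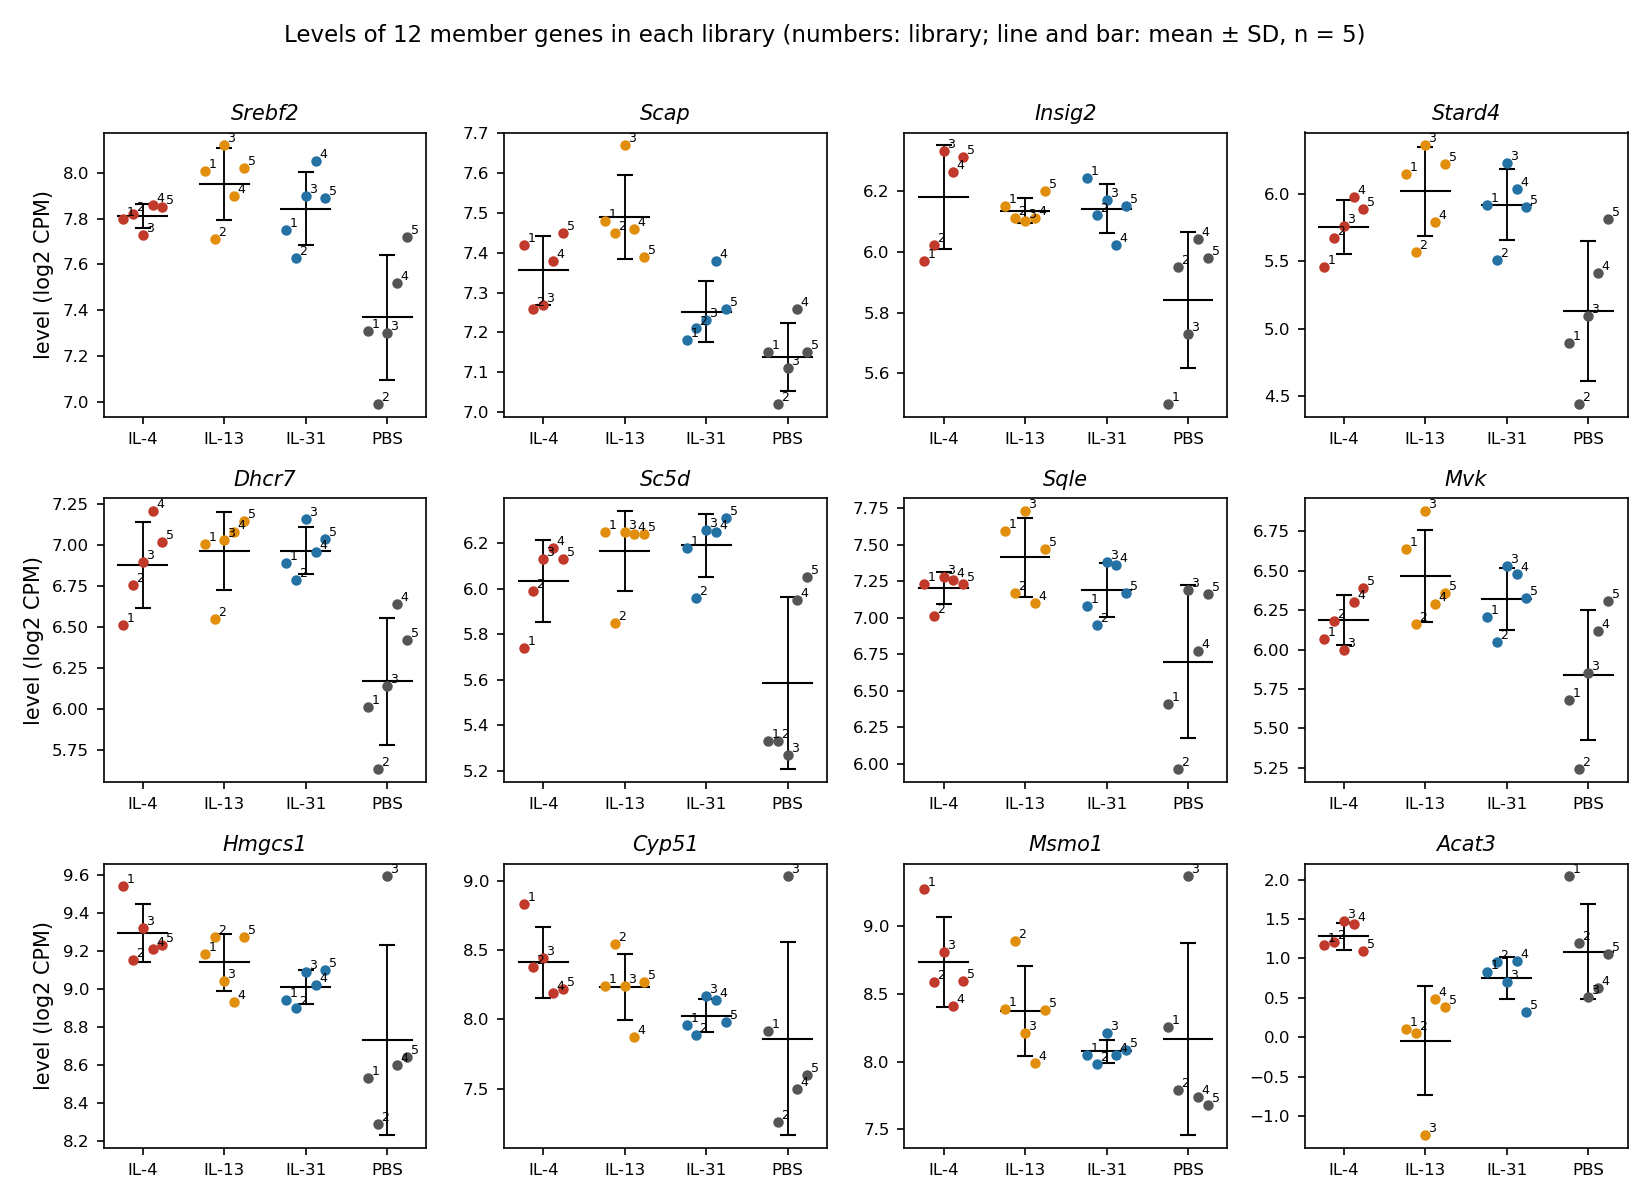
Levels of 12 members in every library of IL-4, IL-13, IL-31 and PBS ears, in log2 CPM, with the library number beside each point and the mean ± SD of each group (n = 5) in black. In Srebf2, Insig2, Stard4, Dhcr7 and Sc5d the PBS libraries spread downwards, while in Hmgcs1, Cyp51 and Msmo1 PBS library 3 stands above the other 4.

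Of the 12 enzymes from squalene to cholesterol, 2 rose in IL-4 ears, 4 in IL-13 ears and 2 in IL-31 ears, and 0 fell. As shares, 16.7%, 33.3% and 16.7% were higher, beside 8.22%, 9.94% and 5.18% of all tested genes. Dhcr7 and Sc5d, called in each comparison, encode the enzymes of the last steps, in which Sc5d makes the precursor that Dhcr7 reduces to cholesterol. Dhcr7 (ENSMUSG00000058454, chr7:143823145-143848410) stood at 6.51, 6.76, 6.9, 7.21 and 7.02 in IL-4 ears, 7.01, 6.55, 7.03, 7.08 and 7.15 in IL-13 ears, 6.89, 6.79, 7.16, 6.96 and 7.04 in IL-31 ears, and 6.01, 5.63, 6.14, 6.64 and 6.42 in PBS ears. The IL-31 libraries did not overlap the PBS libraries, and 1 IL-4 and 1 IL-13 library fell below PBS library 4. The log2 difference was 0.71 ± 0.16 for IL-4 (1.64-fold, adjusted p = 0.00609), 0.80 ± 0.16 for IL-13 (1.74-fold, 0.00298) and 0.80 ± 0.16 for IL-31 (1.75-fold, 0.0193). Setting aside PBS libraries 1, 2 and 3 gave 0.35, 0.43 and 0.44 (adjusted p = 0.206, 0.155 and 0.627).

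Sc5d (ENSMUSG00000032018, chr9:42251595-42264256), the sterol desaturase, showed a split within the PBS group. Its levels were 5.74, 5.99, 6.13, 6.18 and 6.13 in IL-4 ears, 6.25, 5.85, 6.25, 6.24 and 6.24 in IL-13 ears, 6.18, 5.96, 6.26, 6.25 and 6.31 in IL-31 ears, and 5.33, 5.33, 5.27, 5.95 and 6.05 in PBS ears. PBS libraries 1, 2 and 3 lay below every cytokine library, and PBS libraries 4 and 5 lay among them. Relative to PBS, it differed by 0.45 ± 0.14 for IL-4 (adjusted p = 0.0351), 0.58 ± 0.14 for IL-13 (0.00898) and 0.61 ± 0.14 for IL-31 (0.0231). Without PBS libraries 1, 2 and 3 it was 0.03, 0.16 and 0.19 (adjusted p = 0.899, 0.535 and 0.719).

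Sqle and Lbr were called in IL-13 ears. Sqle (ENSMUSG00000022351, chr15:59315077-59331192), squalene epoxidase, a rate-controlling enzyme, stood at 7.23, 7.01, 7.28, 7.26 and 7.23 in IL-4 ears, 7.59, 7.17, 7.73, 7.1 and 7.47 in IL-13 ears, 7.08, 6.95, 7.38, 7.36 and 7.17 in IL-31 ears, and 6.41, 5.96, 7.19, 6.77 and 7.16 in PBS ears. The groups overlapped, since PBS libraries 3 and 5 reached the cytokine range. The log2 difference was 0.50 ± 0.18 for IL-4 (adjusted p = 0.0612), 0.72 ± 0.18 for IL-13 (1.64-fold, 0.0105) and 0.49 ± 0.18 for IL-31 (0.11), and the IL-13 difference without PBS libraries 1, 2 and 3 was 0.45 (0.124). Lbr (ENSMUSG00000004880, chr1:181815335-181843046), a nuclear envelope protein that is also a sterol reductase, stood at 6.48, 6.03, 6.16, 5.99 and 6.33 in IL-13 ears and 5.81, 5.62, 6.01, 5.94 and 6.16 in PBS ears, overlapping ranges, and 9.2% of its exonic bases overlap Dnah14 on the opposite strand. Its log2 difference for IL-13 was 0.29 ± 0.10 (adjusted p = 0.0416), and 0.15 without PBS libraries 1, 2 and 3 (0.509). Tm7sf2, which encodes a reductase for the same step as Lbr, differed by 0.00, −0.04 and −0.19 under IL-4, IL-13 and IL-31, none of which passed.

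The other sterol enzymes did not pass with all libraries. They were Fdft1 (squalene synthase), Lss (lanosterol synthase), Cyp51 (lanosterol demethylase), Msmo1, Nsdhl and Hsd17b7, which remove methyl groups from the sterol ring, and Ebp (sterol isomerase). Their log2 differences lay between 0.27 (Ebp) and 0.57 (Msmo1) for IL-4, between 0.21 (Msmo1) and 0.37 (Cyp51 and Ebp) for IL-13, and between −0.09 (Msmo1) and 0.25 (Fdft1) for IL-31. The spread between libraries was wide. Msmo1 stood at 9.28, 8.59, 8.81, 8.41 and 8.6 in IL-4 ears, 8.39, 8.89, 8.21, 7.99 and 8.38 in IL-13 ears, 8.05, 7.98, 8.21, 8.05 and 8.09 in IL-31 ears, and 8.26, 7.79, 9.37, 7.74 and 7.68 in PBS ears. PBS library 3 was the highest of the 20 libraries and the other 4 PBS libraries lay below every IL-4 library. Fdft1 shares 18.3% of its exonic bases with Ctsb on the opposite strand.

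Of the 10 enzymes from acetyl-CoA to the isoprenoids, 1 rose in IL-4 ears, 2 rose and 1 fell in IL-13 ears, and 0 passed in IL-31 ears. The 10% higher for IL-4 and 10% lower for IL-13 were near the 8.22% and 9.8% of all tested genes. For IL-13 20% were higher, beside 9.94% of all tested genes. Hmgcs1 (ENSMUSG00000093930, chr13:119690379-119708260), the cytosolic HMG-CoA synthase, stood at 9.54, 9.15, 9.32, 9.21 and 9.23 in IL-4 ears, 9.18, 9.27, 9.04, 8.93 and 9.27 in IL-13 ears, 8.94, 8.9, 9.09, 9.02 and 9.1 in IL-31 ears, and 8.53, 8.29, 9.59, 8.6 and 8.64 in PBS ears. PBS library 3 was the highest of all, and the other 4 PBS libraries lay below every cytokine library. Set against PBS, the log2 difference was 0.56 ± 0.16 for IL-4 (1.47-fold, adjusted p = 0.0241), 0.41 ± 0.16 for IL-13 (0.0884) and 0.28 ± 0.16 for IL-31 (0.301). Setting aside PBS libraries 1, 2 and 3 gave 0.67 for IL-4 (0.00726), 0.52 for IL-13 (0.0305) and 0.39 for IL-31 (0.604), so Hmgcs1 was called for IL-4 with and without these libraries. The IL-4 call was lost under quantile scaling and with the mean of the sebaceous gland markers as a covariate (0.27, adjusted p = 0.0704).

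Mvk and Fdps rose in IL-13 ears. Mvk (ENSMUSG00000041939, chr5:114444269-114460591), mevalonate kinase, stood at 6.64, 6.16, 6.88, 6.29 and 6.36 in IL-13 ears and 5.68, 5.24, 5.85, 6.12 and 6.31 in PBS ears, with PBS library 5 inside the IL-13 range. Its log2 difference was 0.35 for IL-4 (adjusted p = 0.154), 0.63 ± 0.17 for IL-13 (1.55-fold, 0.0129) and 0.48 for IL-31 (0.0859), and that for IL-13 was 0.25 without PBS libraries 1, 2 and 3 (0.438). Fdps (ENSMUSG00000059743, chr3:89093588-89101959), farnesyl diphosphate synthase, stood at 7.94, 7.77, 8.03, 7.75 and 7.88 in IL-13 ears and 7.41, 6.85, 7.94, 7.38 and 7.64 in PBS ears, with PBS library 3 inside the IL-13 range. Its log2 difference for IL-13 was 0.43 ± 0.14 (adjusted p = 0.0329) and 0.36 without PBS libraries 1, 2 and 3 (0.0712), and 26.7% of its exonic bases are shared with Gm43738 on the same strand. Acat1, Pmvk, Mvd, Idi1 and Ggps1 did not pass in any of these comparisons.

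Acat3 was the member that fell, in IL-13 ears. Acat3 (ENSMUSG00000062480, chr17:12923813-12940600) lies beside Acat2, which encodes the cytosolic thiolase that starts the pathway. It stood at 1.17, 1.21, 1.47, 1.44 and 1.1 in IL-4 ears, 0.11, 0.06, −1.24, 0.48 and 0.38 in IL-13 ears, 0.83, 0.96, 0.7, 0.97 and 0.32 in IL-31 ears, and 2.04, 1.2, 0.51, 0.63 and 1.05 in PBS ears. All IL-13 libraries lay below every PBS library. These levels are low, and the −1.24 of IL-13 library 3 rests on few reads (3 reads correspond to 0.231 CPM there). The IL-13 call was lost under quantile scaling, and a stricter filter on low values removed the gene. The log2 difference was −1.13 ± 0.31 for IL-13 (adjusted p = 0.0161), 0.19 for IL-4 (0.722) and −0.33 for IL-31 (0.522), and that for IL-13 was −0.88 without PBS libraries 1, 2 and 3 (0.205). Acat3 is a close copy of Acat2 and shares 23.5% of its exonic bases with Tcp1 on the opposite strand, so its reads may have been split or shared, and its value is uncertain. Acat2 differed by 0.39 for IL-4 (adjusted p = 0.175), 0.33 for IL-13 and 0.03 for IL-31 with all libraries.

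Promoter sequences are printed for 4 members of smallest adjusted p for which one could be given, to show which promoter motifs they carry. They come from RefSeq (GRCm38.p6), run from 250 bases before to 50 after the transcription start and are written 5′ to 3′ on the strand of the gene. Capitals mark the sterol element core TCACNCCA and the CCAAT box on either strand, and the letters of the sterol core were chosen after promoter sequences had been seen. Dhcr7 has several entries, of which the one nearest the annotated start and a more internal one are given.
Srebf2, chr15:82147019-82147318, plus strand: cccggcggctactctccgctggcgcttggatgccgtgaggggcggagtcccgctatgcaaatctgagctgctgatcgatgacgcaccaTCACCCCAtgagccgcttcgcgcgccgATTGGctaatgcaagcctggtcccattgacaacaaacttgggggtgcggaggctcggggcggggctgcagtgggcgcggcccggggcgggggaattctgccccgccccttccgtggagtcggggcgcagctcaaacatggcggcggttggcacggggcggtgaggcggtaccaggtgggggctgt
Scap, chr9:110333038-110333337, plus strand: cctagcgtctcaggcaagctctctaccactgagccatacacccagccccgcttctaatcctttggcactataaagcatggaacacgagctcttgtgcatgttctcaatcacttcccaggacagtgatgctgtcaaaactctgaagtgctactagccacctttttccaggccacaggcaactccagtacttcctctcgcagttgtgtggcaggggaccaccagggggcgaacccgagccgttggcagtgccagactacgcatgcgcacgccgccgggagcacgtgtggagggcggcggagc
Dhcr7, chr7:143822917-143823216, plus strand: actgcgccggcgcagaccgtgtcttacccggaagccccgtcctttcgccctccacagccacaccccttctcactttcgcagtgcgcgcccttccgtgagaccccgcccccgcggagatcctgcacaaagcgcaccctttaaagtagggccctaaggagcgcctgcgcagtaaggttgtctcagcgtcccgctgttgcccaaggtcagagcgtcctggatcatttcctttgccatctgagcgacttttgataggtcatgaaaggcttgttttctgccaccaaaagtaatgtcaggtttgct
Dhcr7, internal start, chr7:143829964-143830263, plus strand: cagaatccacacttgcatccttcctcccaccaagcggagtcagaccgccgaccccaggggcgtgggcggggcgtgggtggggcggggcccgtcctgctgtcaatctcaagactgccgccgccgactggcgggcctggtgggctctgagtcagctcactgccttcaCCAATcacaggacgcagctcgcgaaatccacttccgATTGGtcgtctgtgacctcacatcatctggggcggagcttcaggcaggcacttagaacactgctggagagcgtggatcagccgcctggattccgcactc
Sc5d, chr9:42264251-42264550, minus strand: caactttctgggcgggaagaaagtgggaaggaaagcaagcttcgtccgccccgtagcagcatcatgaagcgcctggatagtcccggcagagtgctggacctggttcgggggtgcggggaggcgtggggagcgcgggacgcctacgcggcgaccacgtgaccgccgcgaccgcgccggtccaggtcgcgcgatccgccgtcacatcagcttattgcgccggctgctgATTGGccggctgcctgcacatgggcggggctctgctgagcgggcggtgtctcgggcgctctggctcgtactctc
The Srebf2 window holds 1 sterol core and 1 CCAAT box, the internal Dhcr7 window 2 CCAAT boxes and the Sc5d window 1. Of the 24 members with an entry, 3 (Hmgcs1, Msmo1 and Srebf2) held TCACNCCA in a promoter window (12.5%), against 4.97% of the 27025 genes in the table. CCAAT was held by 20 (83.3%, against 41.1%), the GC box GGGCGG by 21 (87.5%, against 38.2%) and the E-box CANNTG by 19 (79.2%, against 75.0%). All 4 motifs were searched on both strands. A match is a description of the letters and was not tested as a binding site.

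The member genes varied most among the PBS libraries. The median SD of the 30 members was 0.16 in IL-4 ears, 0.181 in IL-13 ears, 0.141 in IL-31 ears and 0.404 in PBS ears, where the median over all tested genes was 0.21, 0.232, 0.185 and 0.332. For 27 of the 30 members the SD was largest in PBS, against 61.7% of all tested genes. PBS library 2 was the lowest of its group for 19 members, and PBS library 3 was the highest for 17.

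**Figure D3:**
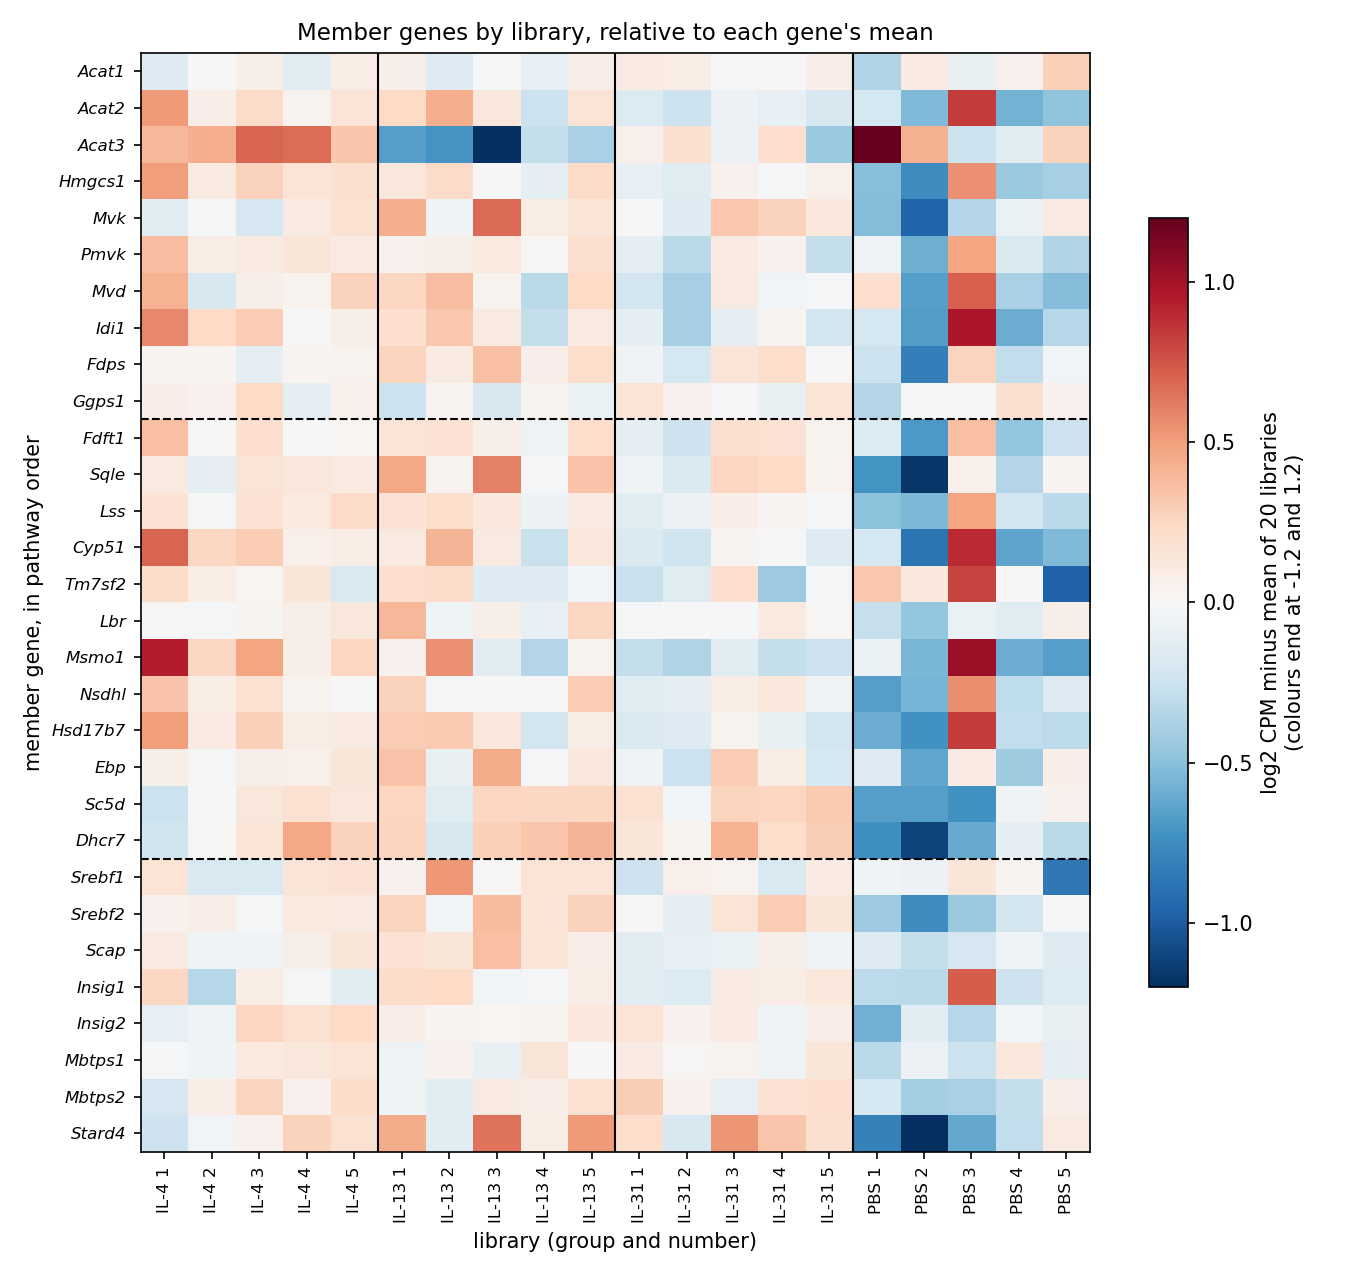
Level of each member in each library minus its mean over the 20 libraries, in log2 CPM, with IL-4, IL-13, IL-31 and PBS libraries from left to right. Most rows are palest among the cytokine libraries, and PBS library 3 is red for 17 members such as Idi1, Cyp51 and Msmo1 but blue for Sc5d, Dhcr7, Srebf2 and Stard4.

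The members fell into a pair of patterns across the PBS libraries, described after their values were seen. In 17 members, among them Acat2, Hmgcs1, Idi1, Cyp51, Msmo1, Hsd17b7 and Insig1, PBS library 3 was the highest, as it was for 18.7% of all tested genes. In 8 members (Mvk, Ggps1, Sc5d, Dhcr7, Srebf2, Scap, Insig2 and Stard4) PBS libraries 4 and 5 lay at or above libraries 1, 2 and 3, as they did for 18.6% of all tested genes. Since the patterns were read from the PBS libraries that each comparison uses, the calls within them are not compared. The mean level of the 8 was 6.22 to 6.47 in IL-4 ears, 6.27 to 6.62 in IL-13 ears and 6.25 to 6.52 in IL-31 ears, and 5.78, 5.66, 5.9, 6.23 and 6.27 in PBS libraries 1 to 5. The mean level of the 17 was 6.94 to 7.28 in IL-4 ears, 6.8 to 7.15 in IL-13 ears and 6.7 to 7 in IL-31 ears, and 6.67, 6.32, 7.49, 6.56 and 6.54 in PBS libraries 1 to 5.

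Marker genes of several cell types also differed among the PBS libraries. The 8 and the 17 members were picked by their PBS values, so where their PBS means are low or high follows from that choice. PBS libraries 1, 2 and 3, low in the 8 members, were also low in the suprabasal markers given above, of which 7 of 12 were called higher in IL-4 ears, 9 in IL-13 ears and 8 in IL-31 ears. PBS library 3, high in the 17 members, was also the highest in the 12 sebaceous gland markers, at a mean of 7.11 against 6.13, 5.61, 5.72 and 5.46 in PBS libraries 1, 2, 4 and 5. The sebaceous mean was 6.24 to 6.95 in IL-4 ears, 5.8 to 6.6 in IL-13 ears, 5.74 to 6.11 in IL-31 ears and 5.46 to 7.11 in PBS ears, and the sums were 2210 to 3332, 1792 to 2880, 1636 to 1946 and 1224 to 3836 CPM. No sebaceous marker was at the lowest value of the table in any library, and 3 of 12 were called higher in IL-4 ears, 1 in IL-13 ears and 0 in IL-31 ears. PBS library 3 was also the highest of its group in melanocyte markers, at 3.72 against 2.48 to 3.05, and in neutrophil markers, at 6.01 against −0.05 to 5.31. It was the lowest of its group in markers of skeletal muscle (7.63), fibroblasts (7.63) and macrophages (4.94). The part of these last 5 cell types in the members' results was not tested. With the suprabasal mean as a covariate 5 members were called for IL-4 (Acat2, Cyp51, Hmgcs1, Idi1 and Msmo1) and 0 for IL-13 and IL-31, and with the sebaceous mean, an alternative chosen after the data were seen, 8, 14 and 7 were called. The suprabasal covariate left 11.5% of all tested genes called for IL-4, 0.0486% for IL-13 and 0% for IL-31, and the sebaceous covariate 23.1%, 26.3% and 9.05%, so the 8 of 30 members for IL-4 with the sebaceous covariate were near the share of all genes.

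**Figure D4:**
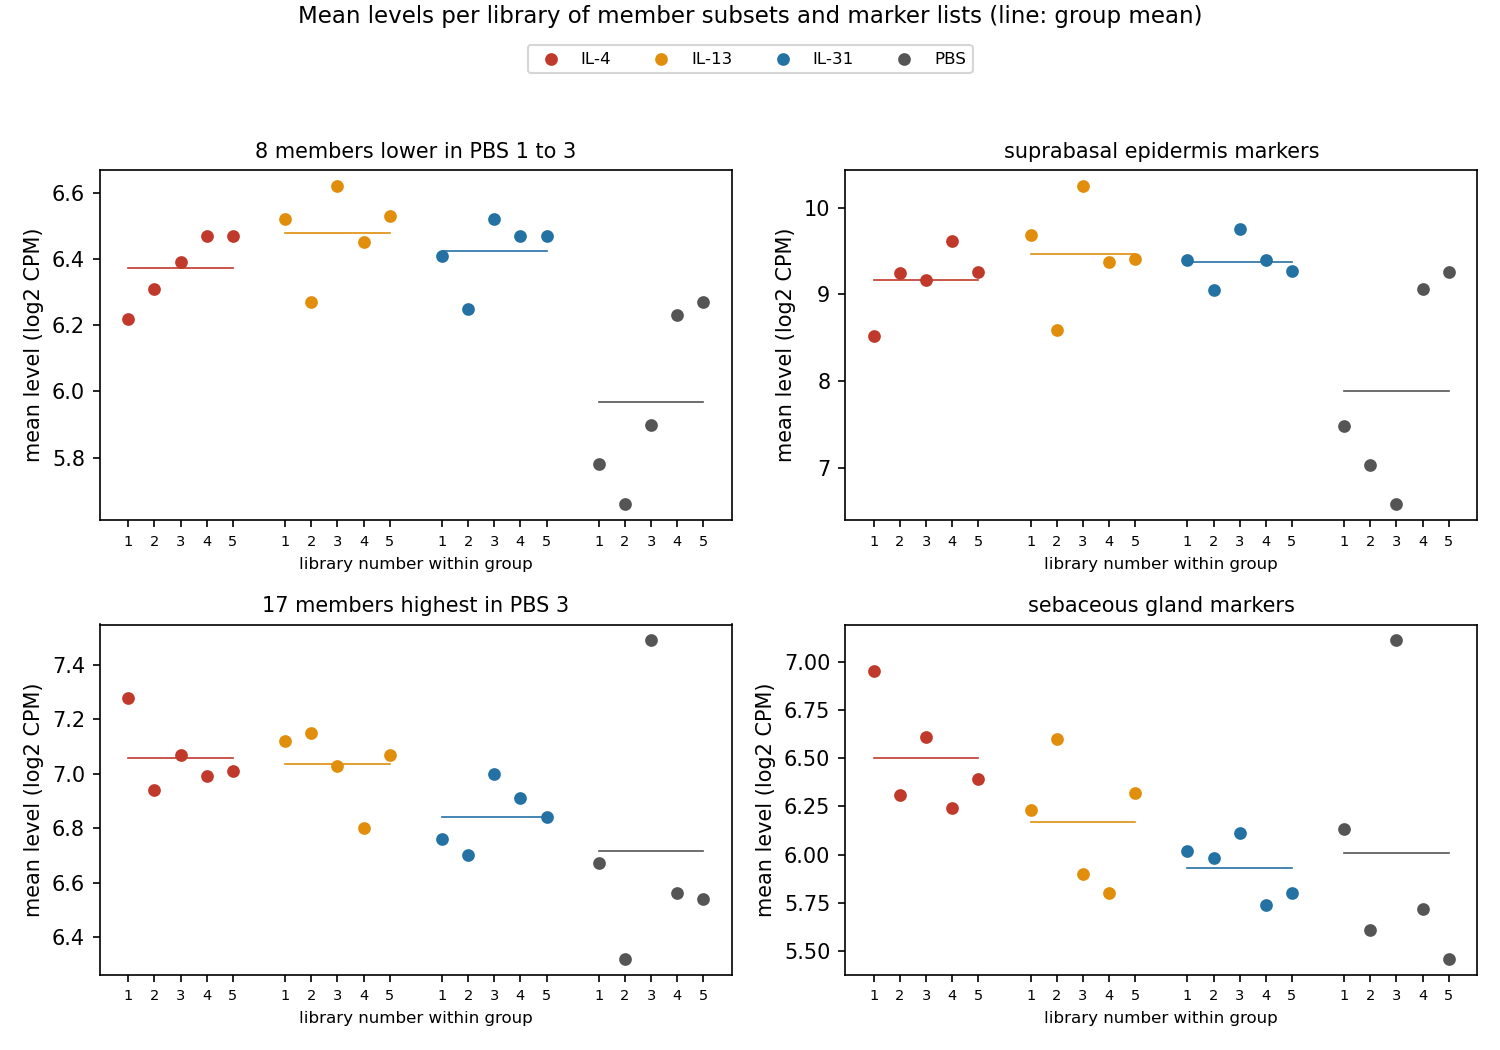
Mean log2 CPM per library of the 8 members that were low in PBS libraries 1 to 3 and of the suprabasal epidermis markers (top), and of the 17 members highest in PBS library 3 and the sebaceous gland markers (bottom). In PBS ears the 8 members reach 6.23 and 6.27 in libraries 4 and 5, where the suprabasal mean is 9.06 and 9.26, and the 17 members peak at 7.49 in library 3, where the sebaceous mean is 7.11. Both sets of members were picked by their PBS values.

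Without PBS libraries 1, 2 and 3 the called members were all enzymes, as are 22 of the 30 members, and none was an SREBP gene. All of the called members belong to the 17 that were highest in PBS library 3, which this fit leaves out. They were 9 of 30 for IL-4 and 4 of 30 for IL-13, where 7.29% and 2.34% of all tested genes were called in that fit. For IL-4 they were Acat2, Cyp51, Fdft1, Hmgcs1, Hsd17b7, Idi1, Lss, Msmo1 and Pmvk, all higher, and for IL-13 they were Acat2, Cyp51, Hmgcs1 and Lss, also higher. Msmo1 had a log2 difference of 1.03 ± 0.20 for IL-4 (adjusted p = 0.013), Cyp51 0.86 ± 0.16 (0.0118), Acat2 0.73 ± 0.14 (0.0131) and Idi1 0.71 ± 0.16 (0.0199). For IL-13 the difference of Cyp51 was 0.68 ± 0.16 (0.0376) and that of Acat2 was 0.67 ± 0.14 (0.0305). These values rest on 2 PBS libraries, in which the mean of the 17 members was 6.56 and 6.54 and that of the sebaceous markers 5.72 and 5.46. In the same fit 8 of 12 sebaceous markers were called higher for IL-4 and 1 for IL-13. For either, 0 of 12 suprabasal markers were called, which follows from leaving out PBS libraries chosen for their low suprabasal means. In the fit to all libraries with the sebaceous mean as a covariate, the IL-4 differences of Msmo1, Cyp51, Acat2 and Idi1 were 0.06, 0.11, 0.01 and 0.00 (adjusted p = 0.636, 0.507, 0.956 and 0.994). None of them was called for IL-4 with all libraries and no covariate either. Their means there were 8.74, 8.41, 7.07 and 7.87 in IL-4 ears and 8.17, 7.86, 6.68 and 7.46 in PBS ears. No fit without PBS libraries 1, 2 and 3 held this covariate, so its part in the calls of that fit was not tested. Without PBS libraries 1, 2 and 3, 11 of 12 skeletal muscle, 8 of 10 macrophage and 7 of 8 fibroblast markers were lower for IL-4, and 2, 4 and 3 of them for IL-13, and their part in these calls was not tested. The fits share the cytokine libraries and these 2 PBS libraries, so the sets of calls are not independent.

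**Figure D5:**
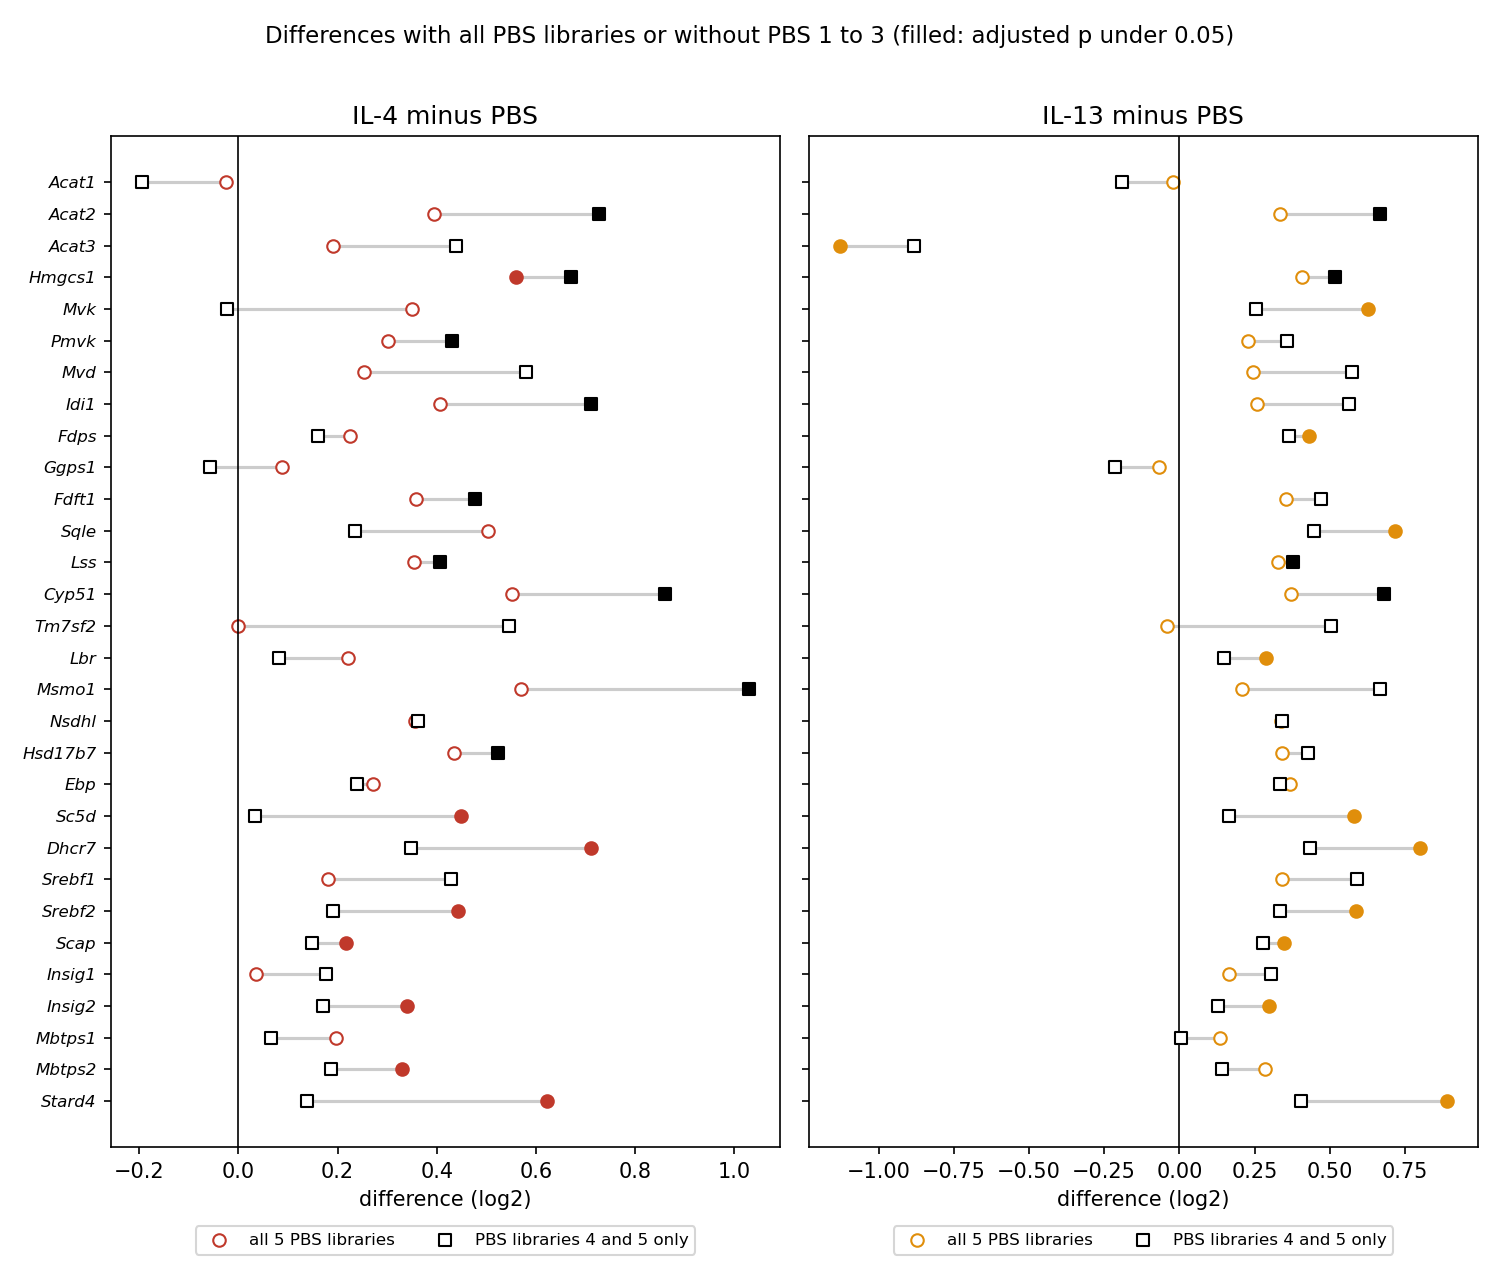
Log2 difference of each member from PBS in IL-4 ears (left) and IL-13 ears (right), with all 5 PBS libraries (circles) and with PBS libraries 4 and 5 (squares), filled where the adjusted p was under 0.05. The filled squares belong to enzymes such as Msmo1 (1.03) and Cyp51 (0.86) for IL-4, and the filled circles to genes such as Dhcr7, Srebf2 and Stard4.

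The number of calls also hung on single libraries. For IL-4 it was 4 without PBS library 1, 3 without PBS library 2 and 14 without PBS library 3, and 5, 5, 4 and 3 without IL-4 libraries 2, 3, 4 and 5. For IL-13 it was 21 without PBS library 3, and 8 to 13 without any of the other 9 libraries. For IL-31 it was 0 without PBS library 1, 2 or 3 or IL-31 library 3 or 5, 2 without IL-31 library 4, 7 without PBS library 4 and 9 without PBS library 5, of which 8 were higher and Tm7sf2 was lower. The share of all tested genes called moved too. For IL-4 it was 15.3%, 11.5% and 14.7% without PBS libraries 1, 2 and 3, against 17.8% with all libraries. For IL-13 it was 15.5% without PBS library 3, against 19.7%, so there the share fell while the member count rose, as for IL-4. For IL-31 it was 0.158%, 0% and 0.00607% without PBS libraries 1, 2 and 3, and 0% without IL-31 library 3 or 5. Without PBS libraries 4 and 5 it was 11.5% and 18.4%, against 6.38%. Dhcr7 and Srebf2 kept their IL-4 call in every one of the 10 such fits, and Acat3, Dhcr7, Mvk, Sc5d, Scap, Sqle, Srebf2 and Stard4 kept their IL-13 call. The other calls each failed without some single library, with log2 differences of unchanged sign. Among IL-4 calls, Insig2 failed without IL-4 library 5 (highest adjusted p = 0.053), Hmgcs1 without PBS library 1 or 2 or IL-4 library 1 (0.0765) and Scap without PBS library 2 or 3 or IL-4 library 1, 4 or 5 (0.0851). Sc5d and Stard4 failed for IL-4 without PBS library 1, 2 or 3 or IL-4 library 2, 3, 4 or 5 (0.0985 and 0.123), and Mbtps2 without those or PBS library 4 (0.113). Fdps and Lbr failed for IL-13 without PBS library 1, 2 or 4 or IL-13 library 1, 3 or 5 (0.0925 and 0.131), and Insig2 without PBS library 1 or 3 or IL-13 library 1, 3, 4 or 5 (0.086). For IL-31, Dhcr7, Sc5d, Srebf2 and Stard4 all failed without PBS library 1, 2 or 3 or IL-31 library 3 or 5, Srebf2 and Stard4 also without IL-31 library 4 and Stard4 without IL-31 library 1, with highest adjusted p-values of 0.0656, 0.0777, 0.0735 and 0.0893. Fitting the 2 compared groups alone called Dhcr7 and Srebf2 for IL-4, Dhcr7, Scap, Srebf2 and Stard4 for IL-13 and 0 members for IL-31.

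No member differed between cytokines at an adjusted p under 0.05, and in the fit to all libraries neither did any of the 16461 tested genes. Without IL-31 library 3, 304 genes differed between IL-4 and IL-31 ears and 297 between IL-13 and IL-31 ears, while 0 members did. At an unadjusted p under 0.05 limma gave 1 member for IL-4 against IL-13, 1 for IL-4 against IL-31 and 2 for IL-13 against IL-31, where 4.03%, 10.6% and 7.29% of all tested genes were. Srebf2 differed by −0.14 (95% interval −0.37 to 0.09) in IL-4 minus IL-13, −0.03 (−0.26 to 0.20) in IL-4 minus IL-31 and 0.11 (−0.12 to 0.34) in IL-13 minus IL-31. Dhcr7 differed by −0.09 (−0.42 to 0.25), −0.09 (−0.43 to 0.24) and 0.00 (−0.34 to 0.33) in the same order. Stard4 had wider intervals, of which that for IL-4 minus IL-13 reached furthest from 0, to −0.69.

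Some members separated the cytokine groups without passing the test. Acat2, Acat3, Hmgcs1, Cyp51, Msmo1 and Hsd17b7 were higher in every IL-4 library than in any IL-31 library, which is 6 of 30 members, where 2.14% of all tested genes were. Acat3 was also higher in every IL-4 library than in any IL-13 library (0.364% of all tested genes), and Fdps was lower (0.45%). Among the 6 that separated IL-4 from IL-31 ears, Msmo1 had the largest difference, 0.66 (95% interval 0.14 to 1.18, adjusted p = 0.303), and the adjusted p-values of the 6 lay between 0.303 and 0.581. The sebaceous marker means did not overlap between IL-4 and IL-31 ears either, at 6.24 to 6.95 in IL-4 ears against 5.74 to 6.11 in IL-31 ears, and their part in the result was not tested. Scap was higher in every IL-13 library than in any IL-31 library, with a difference of 0.24 (0.10 to 0.38, adjusted p = 0.215), and 0.571% of all tested genes separated that way. The IL-4 minus IL-13 difference of Acat3 was 1.32 (0.67 to 1.97, adjusted p = 0.997).

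Other genes of sterol and fatty acid metabolism were taken from lists made with earlier results known. Cyb5a, cytochrome b5, an electron donor to sterol enzymes, rose by 0.25 for IL-4 (adjusted p = 0.0292) and did not pass with PBS libraries 4 and 5 alone as controls (0.19, adjusted p = 0.134).

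Of 18 genes of fatty acid synthesis and SREBP1 targets, 2 rose and 1 fell in IL-4 ears, 2 rose in IL-13 ears and 0 passed in IL-31 ears. As shares, 11.1% were higher and 5.56% lower for IL-4 and 11.1% higher for IL-13, beside 8.22%, 9.63% and 9.94% of all tested genes. Me1, malic enzyme, which supplies NADPH, rose by 0.69 for IL-4 (adjusted p = 0.00298) and 0.64 for IL-13 (0.00395). Pnpla3, a lipase gene, rose by 0.81 for IL-4 (adjusted p = 0.0289), Scd2, a desaturase gene, rose by 0.48 for IL-13 (0.0152), and Fads2, another desaturase gene, fell by 0.56 for IL-4 (0.0348). With PBS libraries 4 and 5 alone as controls, Me1 rose by 0.73 for IL-4 (adjusted p = 0.00534) and 0.68 for IL-13 (0.0158), while Pnpla3 (0.34, 0.445), Scd2 (0.51, 0.0574) and Fads2 (−0.62, 0.0902) did not pass, and 6 of the 18 rose for IL-4, 1 for IL-13 and 0 for IL-31. The median difference of the list, with all libraries, was 0.2333 for IL-4, 0.1275 for IL-13 and −0.0512 for IL-31, beside 0.345, 0.3354 and 0.1803 for the cholesterol members.

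Of 14 genes of sterol uptake, storage and trafficking, 3 rose and 3 fell in IL-4 ears, 2 rose and 3 fell in IL-13 ears, and 2 rose in IL-31 ears. As shares, 21.4%, 14.3% and 14.3% were higher, beside 8.22%, 9.94% and 5.18% of all tested genes. For IL-4 and IL-13 21.4% and 21.4% were lower, beside 9.63% and 9.8%. Gramd1c, which encodes a sterol transfer protein of the endoplasmic reticulum, rose by 0.82, 0.74 and 0.79 under IL-4, IL-13 and IL-31 (adjusted p = 0.00507, 0.00833 and 0.0221), while its relative Gramd1b fell by 0.78 for IL-4 and 0.90 for IL-13 (0.0145 and 0.00618). Stard5, another sterol carrier gene, rose by 0.39, 0.47 and 0.38 (adjusted p = 0.0125, 0.00381 and 0.0302). Scarb1, the receptor for high-density lipoprotein, fell by 0.50 for IL-4 and 0.59 for IL-13 (0.0134 and 0.00511). None of these 4 genes passed with PBS libraries 4 and 5 alone as controls, where Gramd1c differed by 0.35, 0.27 and 0.32 (adjusted p = 0.246, 0.449 and 0.695) and Scarb1 by −0.29 and −0.39 (0.283 and 0.205). The skeletal muscle markers fell in the same comparisons, 12 of 12 in IL-4 and IL-13 ears and 0 in IL-31 ears, with sums of 404.5 to 3586 CPM in IL-4 ears, 941.1 to 3760 in IL-13 ears, 1858 to 8617 in IL-31 ears and 6352 to 19110 in PBS ears. In IL-4 library 2, 1 of the 12 was at the lowest value of the table. Their part in any of these results was not tested.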

How the data were processed

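The authors deposited 1 table of log2 CPM (counts scaled to library size) for 16669 Ensembl gene identifiers in 20 libraries. Per the labels' protocols, total RNA went into NEBNext Ultra II libraries. The submitters' processing notes list GRCm38 and edgeR, and no aligner, counter, annotation or use of strand is given in the sources used here. The lowest deposited log2 value was −2.684 in every library, an offset of 0.1556 CPM, so differences of low genes are understated. Between 79.2 and 86.8% of low values were whole multiples of 1 read (within 0.02 reads), too few to recover counts, so no count test was run. GENCODE M21 (GRCm38) gave symbols for 16644 identifiers.

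Genes at log2 0 or more in at least 5 libraries were kept (16461, 208 removed). limma 3.58.1 in R 4.3.3 fitted 1 mean per group to all 20 libraries (eBayes with trend, two-sided, Benjamini-Hochberg over all tested genes of each of 6 comparisons, threshold 0.05), after a check on simulated data with equal spread in all groups. The groups share 1 spread per gene, so for genes more variable in PBS ears the SE, intervals and p-values against PBS may be too optimistic. Intervals are 95% and unadjusted for the number of genes. The members and gene lists were chosen with earlier results of these data known. Per-library values are given for called members and for Srebf1, Srebf2, Scap, Insig1 and Insig2; of other lists at most the 4 called genes of smallest p are named. Msmo1 was chosen after its values were seen. python 3.11.15, numpy 2.4.6, pandas 2.3.3 and matplotlib 3.10.9 were used. Alternatives covered filters, offset, scaling, the libraries in the fit, a replicate block, marker covariates and the variance model. Results for 1 gene of the other sterol synthesis list are not reported here.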

Additional observations from a re-analysis of the deposited data

Results flagged for a closer look

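Each member was looked at in each group for a library far from the other 4, meaning a gap to its nearest neighbour over 0.71 of the whole range. Of 120 such checks 13 met this, where independent normal values would give about 1 in 20. The share of all tested genes that met this was not computed, so 13 is not compared with it. The members are not independent, since they were measured in the same libraries.

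Of these, 5 were PBS library 3 standing high. Acat2 was 7.71 there against 6.3 to 6.66 in the other PBS libraries, Hmgcs1 9.59 against 8.29 to 8.64, Idi1 8.6 against 6.96 to 7.42, Hsd17b7 7.87 against 6.3 to 6.73 and Insig1 6.81 against 5.76 to 5.92. PBS library 5 was low for Srebf1, at 7.19 against 7.98 to 8.19.

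IL-13 library 2 was low for Sc5d, at 5.85 against 6.24 to 6.25, and for Dhcr7, at 6.55 against 7.01 to 7.15, the last enzymes of the pathway. The mean of the suprabasal markers was also lowest in that IL-13 library, at 8.59, and its part was not tested. IL-13 library 3 was low for Acat3, at −1.24 against 0.06 to 0.48.

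In IL-4 ears library 1 was high for Pmvk, at 6.63 against 6.35 to 6.41, library 3 was low for Fdps, at 7.55 against 7.7 to 7.71, and library 2 was low for Sqle, at 7.01 against 7.23 to 7.28. In IL-31 ears library 4 was high for Lbr, at 6.2 against 6.06 to 6.1.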

How the results depend on the processing

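Called members numbered 8 for IL-4, 11 for IL-13 and 4 for IL-31 (either direction). Fitting only the compared groups gave 2, 4 and 0, and the suprabasal covariate gave 5, 0 and 0. Without PBS libraries 1, 2 and 3 there were 9, 4 and 0, and without the 9 libraries above 2 log2 CPM in neutrophil markers, chosen after the data were seen, 14, 7 and 0. The sebaceous covariate, also chosen then, gave 8, 14 and 7. Leaving out 1 library gave 3 to 14, 8 to 21 and 0 to 9. Filters, a 1 CPM offset, quantile scaling and eBayes without trend kept each count within 1.5 times. The cause of these shifts was not tested. Between cytokines the count of members was 0 in every fit run, and over all genes 0 to 4 except without IL-31 library 3 (304 for IL-4 and 297 for IL-13, each against IL-31). No called member changed sign. Over all genes, 2938, 3250 and 1050 calls became 1269, 1134 and 0 with only the compared groups, 1893, 8 and 0 with the suprabasal covariate, 1200, 385 and 0 without PBS libraries 1, 2 and 3, and 1387, 549 and 0 without the libraries high in neutrophil markers, and 3798, 4337 and 1489 with the sebaceous covariate. Without 1 library they were 1885 to 3553, 1995 to 4703 and 0 to 3029. Under quantile scaling 59.5% of all IL-4 calls and 61.4% of all IL-13 calls were higher, against 46.1% and 50.4%.

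The replicate block gave 9, 12 and 6. The numbers are not stated to pair libraries, their deviations correlated at −0.236 to 0.486 within a number, and 3 of 20 libraries correlated best with their own number. With 5 libraries a group, a member that did not pass may still differ by any amount within its interval. At the low end, 3 reads correspond to at most 0.491 CPM.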

Other observations

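Genes that act beside the pathway also differed from PBS. Of 9 genes for protein degradation at the endoplasmic reticulum, 3 rose in IL-4 ears, 2 in IL-13 ears and 2 in IL-31 ears, and 0 fell. As shares, 33.3%, 22.2% and 22.2% were higher, beside 8.22%, 9.94% and 5.18% of all tested genes. Erlin2, which encodes a membrane protein of the endoplasmic reticulum, rose by 0.49, 0.54 and 0.53 under IL-4, IL-13 and IL-31 (adjusted p = 0.00739, 0.00382 and 0.0198 in limma), and its partner Erlin1 rose by 0.47, 0.55 and 0.50 (0.0262, 0.0104 and 0.0401). Rnf145, a ubiquitin ligase gene, rose by 0.28 for IL-4 (adjusted p = 0.0197). Of 8 genes that use isoprenoids for other products, Fnta, a subunit of the enzymes that attach farnesyl and geranylgeranyl groups to proteins, rose by 0.25, 0.23 and 0.25 (0.025, 0.0298 and 0.0486). With PBS libraries 4 and 5 alone as controls, Rnf145 passed for IL-4 (0.39, adjusted p = 0.0323), and Erlin2 (0.16, 0.21 and 0.20), Erlin1 (0.08, 0.16 and 0.11) and Fnta (0.18, 0.17 and 0.18) did not.

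Of 10 genes of LXR, the sterol-sensing receptor, and of sterol efflux, 0 passed in IL-4 or IL-31 ears and 2 fell in IL-13 ears. That is 20% lower for IL-13, beside 9.8% of all tested genes. Nr1h3, which encodes LXR alpha, fell by 0.87 (adjusted p = 0.0222 in limma) and Cyp27a1, a sterol hydroxylase gene, fell by 0.86 (0.00921). With PBS libraries 4 and 5 alone as controls they differed by −0.43 (adjusted p = 0.491) and −0.48 (0.264). Macrophages are known to express both genes. Of 10 macrophage markers, none of which is at the lowest value of the table in any library, 5 were lower in IL-4 ears, 4 in IL-13 ears and 0 in IL-31 ears, with sums of 256.7 to 419.2, 271.2 to 618.7 and 361.9 to 683.1 CPM against 595.9 to 1247 CPM in PBS ears, and their part in the result was not tested.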
